A study of Mus musculus with 2 samples.

Results

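The genes described here are 2 homing chemokines and 2 scavenger receptors of the gut stroma: Cxcl12, Ccl21a, Ackr3 and Ackr4. They were taken by name, and they are 4 of the 16381 genes listed for the colon and the 18262 listed for the small intestine, of which 16098 were listed for both. Levels and shares of positive cells were read in every annotated cell type of each tissue, so that the sites that make a chemokine could be set beside the sites that can remove it.

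Chemokines are small secreted proteins that bind to matrix and guide migrating cells along their gradients. CXCL12 signals through CXCR4 and retains or attracts many leukocytes and progenitors, and CCL21 signals through CCR7 and draws dendritic cells and T cells into lymphatic vessels. ACKR3 binds CXCL12 and CXCL11, and ACKR4 binds CCL19, CCL21 and CCL25. Both are atypical receptors that take the ligand up for degradation without classical G protein signalling, and thereby shape the gradient. RNA levels were measured here, and neither protein nor ligand uptake was.

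The study used droplet single-cell RNA sequencing on stroma from healthy mice that received no treatment, with colon and small intestine prepared apart, after sorting live cells that carried neither CD45 nor EpCAM. Each tissue was represented by 1 library, digested for 60 minutes (colon) or 45 minutes (small intestine). The number, strain, sex and age of the animals are not given in the labels. Because there was 1 library per tissue there is no replicate check and no test: every interval below is a 95% interval for counting error alone, and tissue, digestion and animal cannot be told apart.

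The colon library held 6018 cells with a median of 6598 UMIs (unique molecular identifiers, each marking 1 captured RNA molecule), and the small intestine library held 9359 cells with a median of 5943. The libraries shared 21 cell barcodes. The authors' labels gave 6 types that reached 50 cells in both tissues: the fibroblasts named CD81- FBs, CD81+ trophocytes and PDGFRa-high SEMFs, then LECs, BECs and SMCs, which carried lymphatic endothelial, blood endothelial and smooth muscle markers. The marker genes of each type were highest under their own label in the colon except Cd81, and in the small intestine except Cd81, Cd55, Adamdec1, Fbln1, Pdpn, Kdr and Emcn. Adamdec1, a marker of CD81- FBs, reached 9211 CPM (UMIs of the gene for every 1000000 UMIs of the type) in the small intestinal SMC label against 8191 CPM in CD81- FBs. Immune markers summed to 163 CPM in colon BECs and at most 4.90 CPM in every other type of both libraries, and mesothelial markers were not listed. The colon library mixed 2541 fibroblasts with Xist and no Y-linked UMIs and 1637 with Y-linked and no Xist UMIs (the small intestinal table does not list Xist).

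Ccl21a has near-identical copies, and the sequence shows why its counts are uncertain. In GRCm38 (GENCODE M21), the same assembly as the mm10 named in the submitters' processing notes, Ccl21a lies at chr4:42772860-42773993 on the minus strand, and Gm21541 at chr4:41903610-41904743 on the plus strand. Their transcripts of 870 bases differ at 6 positions, 3 of them in the last 300 bases, where a 3' kit reads. A coding stretch of 151 bases that spans 3 exons (chr4:42773523-42773855 for Ccl21a) is shown 5′ to 3′, with the differing bases in capitals.
Ccl21a: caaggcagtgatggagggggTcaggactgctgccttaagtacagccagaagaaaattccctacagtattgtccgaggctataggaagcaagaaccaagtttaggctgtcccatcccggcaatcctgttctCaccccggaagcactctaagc
Gm21541: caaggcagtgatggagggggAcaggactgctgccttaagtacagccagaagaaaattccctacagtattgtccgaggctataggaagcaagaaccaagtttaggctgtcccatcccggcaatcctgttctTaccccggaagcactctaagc
Counted from the first coding base of Ccl21a, the substitutions are T84A and C194T. The same pair of substitutions was found in Ccl21b, Gm10591 and Gm13304, whose transcripts were 99.4% to 99.5% identical to Ccl21a over the aligned bases. Those were 402 bases for Ccl21b and Gm10591 and 837 for Gm13304, so the identity covers only part of the 870 bases. Of the 6 copies looked for by name, Gm21541 alone was listed, in the small intestine, with 75 UMIs in LECs. Reads that fit several copies may have been lost or split, so a Ccl21a count here is that of the reads assigned to this symbol.

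The other members have no such copies in the list. Cxcl12 lies at chr6:117168535-117181367 (plus strand) and Ackr3 at chr1:90203980-90216751 (plus strand), and neither overlaps another annotated gene, whereas Ccl21a overlaps 4930578G10Rik on the opposite strand. Ackr4 lies at chr9:104084157-104126933 on the minus strand and overlaps Acad11, a mitochondrial acyl-CoA dehydrogenase gene, on the plus strand, and 2 predicted genes. Acad11 was itself highest in trophocytes, with 26.9 CPM (colon) and 50.4 CPM (small intestine). The strand setting of the counting is not given in the sources used here, so reads from Ackr4 and Acad11 cannot be fully told apart.

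**Figure D1:**
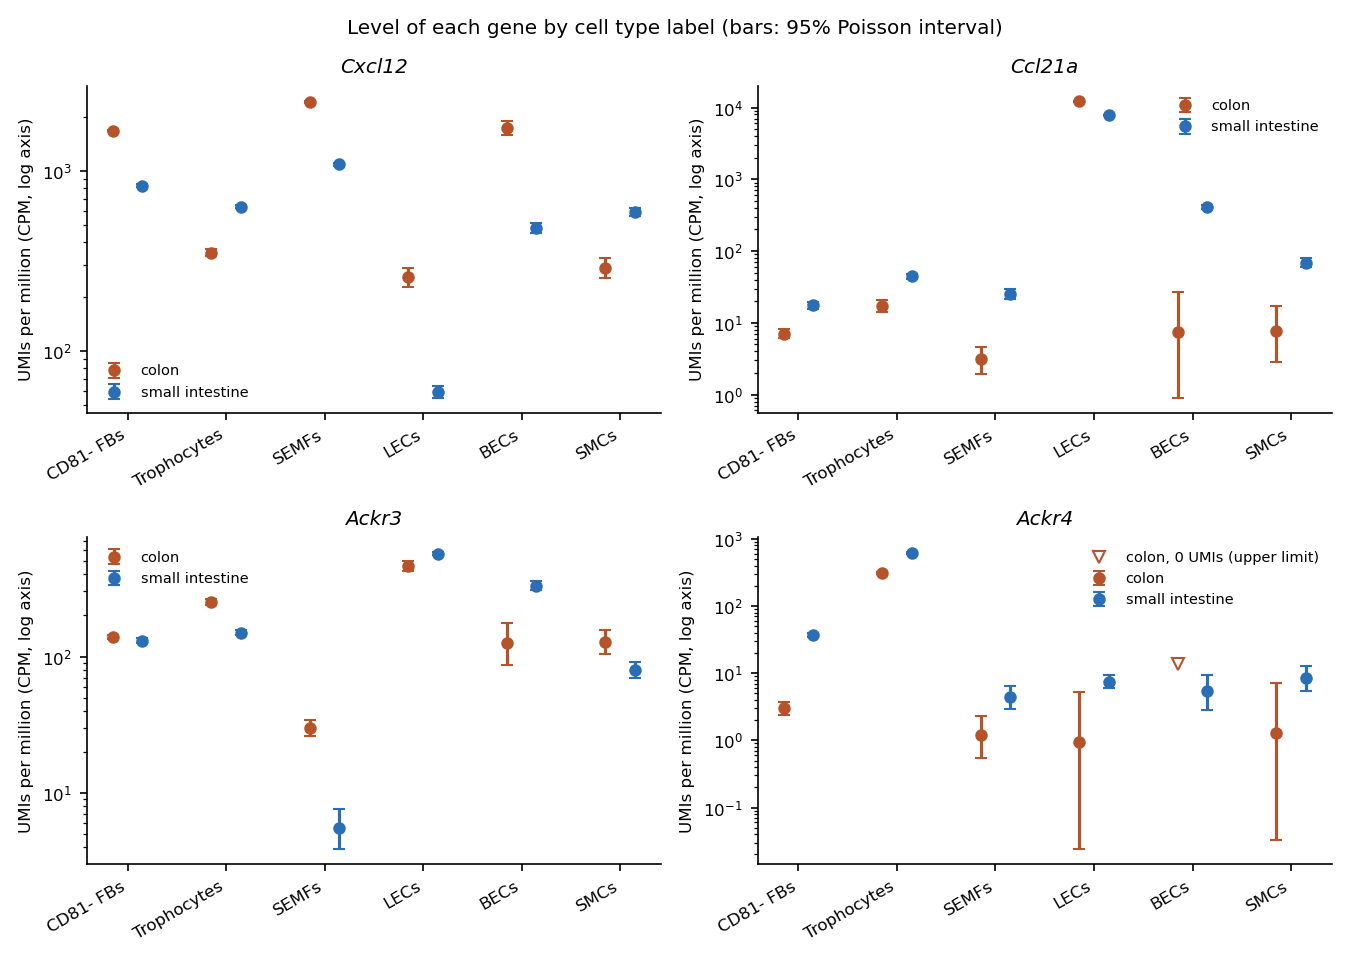
Level of Cxcl12, Ccl21a, Ackr3 and Ackr4 in the 6 cell type labels, in CPM on a log axis, for the colon (orange) and the small intestine (blue). Points are levels of 1 library and bars are 95% Poisson intervals for counting error; the open triangle is the upper limit of Ackr4 in colon BECs, where no UMI was counted. Each gene has the same highest label in both tissues.

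Each of the 4 genes had the same highest type in both tissues: SEMFs for Cxcl12, LECs for Ccl21a and Ackr3, and trophocytes for Ackr4. Across the 11862 genes with at least 100 UMIs in each library, 46.1% had the same highest type of the 6 in both. Of the 40 neighbouring pairs in the order of types, over 4 genes and both libraries, 26 had a counting interval of their ratio that excluded 0.

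Cxcl12 was led by SEMFs and was not confined to fibroblasts, since BECs were also high in the colon. In the colon its level was 2412 CPM in SEMFs, 1735 CPM in BECs, 1671 CPM in CD81- FBs, 351 CPM in trophocytes, 289 CPM in SMCs and 256 CPM in LECs. In that order BECs and CD81- FBs did not differ beyond counting error (log2 ratio 0.05, -0.08 to 0.19), nor did SMCs and LECs (0.17, -0.09 to 0.43). Colon Cxcl12 thus fell into a high and a low group of labels, with CD81- FBs 4.77-fold above trophocytes. In the small intestine the order was SEMFs at 1086 CPM, CD81- FBs at 828 CPM, trophocytes at 631 CPM, SMCs at 590 CPM, BECs at 483 CPM and LECs at 59.1 CPM. There the fibroblast types lay close together, CD81- FBs only 1.31-fold above trophocytes, and LECs stood 8.17-fold below the next type.

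Most fibroblasts had a Cxcl12 UMI. The share was 99.1% of CD81- FBs, 96.8% of SEMFs and 73.0% of trophocytes in the colon, and 96.1%, 96.0% and 89.1% in the small intestine. With each cell thinned to 1500 UMIs, which left out 57 small intestinal fibroblasts and no colon cell, the expected shares were 86.2%, 87.9% and 36.2% in the colon and 66.4%, 76.0% and 53.0% in the small intestine. The thinned shares kept trophocytes as the lowest of the fibroblast types in each tissue. A positive SEMF held a mean of 16.8 Cxcl12 UMIs in the colon and 6.65 in the small intestine.

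Endothelial Cxcl12 had to be read beside fibroblast transcripts in the same labels. In colon BECs, 6 fibroblast marker genes stood at 18.6% to 26.3% of their level in CD81- FBs, whereas Cxcl12 stood at 104%. In small intestinal BECs those genes stood at 1.05% to 2.28% and Cxcl12 at 58.3%. In both tissues the Cxcl12 percentage in BECs was above those of the fibroblast genes. In LECs the gap was narrow: 15.3% for Cxcl12 against 9.31% to 20.5% for the fibroblast genes in the colon, and 7.14% against 1.32% to 5.94% in the small intestine. In SMCs Cxcl12 stood at 17.3% in the colon, below the 18.5% to 67.1% of the fibroblast genes, and at 71.3% in the small intestine, within their 36.8% to 112%. The part of free RNA or joined cells in the BEC, LEC and SMC values was not tested.

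Blood endothelial cells were not uniform for Cxcl12. The 45 colon cells labelled CapECs had 2029 CPM (1848 to 2223), the 4 ArtECs 6 UMIs and the 4 VenECs 1 UMI. The small intestinal label is not divided, so its 524 BECs were split by Selp, the P-selectin gene of venous endothelium, a split chosen after values had been seen. The 194 cells with a Selp UMI had 35.4 CPM of Cxcl12, and the 330 without had 911 CPM, a log2 ratio of -4.68 (-5.19 to -4.22). Venous-marked cells were thus low and the other BECs high in the small intestine, and the same cells with Selp had 375 CPM of Ackr3 against 288 CPM without it (log2 ratio 0.38, 0.16 to 0.59).

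Ccl21a was almost entirely a transcript of the LEC label. LECs reached 12171 CPM (11963 to 12383) in the colon and 7839 CPM (7787 to 7891) in the small intestine, and all 217 colon LECs and 97.9% of the 2498 small intestinal LECs had a UMI. LECs were 3.61% of the colon cells and held 97.3% of the Ccl21a UMIs, and they were 26.7% of the small intestinal cells and held 96.8%. Outside LECs the colon types lay between 3.09 and 17.1 CPM, and 1.99% to 4.80% of their cells had a UMI. In the small intestine they lay between 17.5 and 69.1 CPM, apart from BECs at 416 CPM, and 6.67% to 8.73% of their cells had a UMI. The median depth of the LECs was 4545 and 4118 UMIs, and that of the fibroblasts 6707 and 7018. The fibroblasts were thus deeper than the LECs, and the BECs, at 3821 and 3652 UMIs, were shallower.

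**Figure D2:**
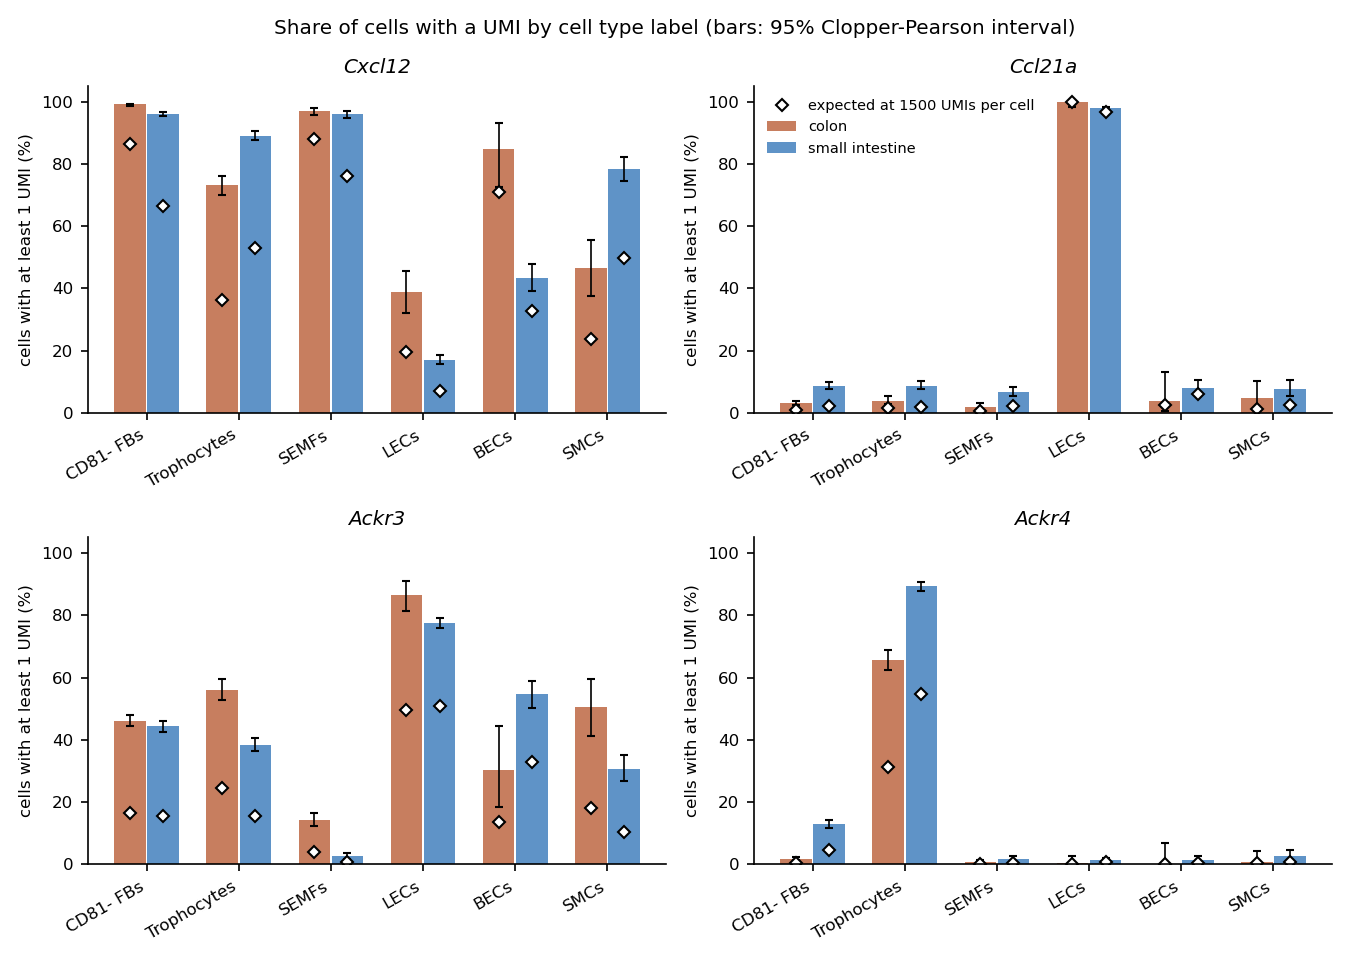
Share of cells with at least 1 UMI of each gene, in percent, by cell type label in the colon (orange) and small intestine (blue). Bars carry 95% Clopper-Pearson intervals and diamonds give the share expected at 1500 UMIs per cell; Ccl21a reaches 100% and 97.9% of LECs, and Ackr4 65.6% and 89.3% of trophocytes.

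In some labels few cells carried most of the Ccl21a counted outside LECs. In small intestinal BECs, 22 of the 524 cells had 10 or more Ccl21a UMIs and held 96.5% of the UMIs of the label. All 22 carried at least 2 of 5 lymphatic markers, and their median depth was 8990 UMIs against 3533 for the other BECs. Without such cells the BEC level was 16.1 CPM, close to the other types. With all cells kept, the lymphatic marker genes in BECs stood at 5.81% to 9.47% of their LEC level and Ccl21a at 5.30%. At least 2 of those markers were also found in every such rich cell of the colon (2 CD81- FBs and 3 trophocytes) and of the small intestinal CD81- FBs, SEMFs and SMCs (2, 4 and 2 cells). The rich cells held 56.0% of the Ccl21a UMIs of colon trophocytes and 22.3% of those of colon CD81- FBs, and the colon SEMFs, BECs and SMCs had none. Of the small intestinal labels they held 17.6% in CD81- FBs, 52.7% in SEMFs and 75.3% in SMCs.

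The small intestinal trophocytes held an exception. A single cell had 469 of their 669 Ccl21a UMIs, and with it 114 Ccl19, 73 Cxcl12, 143 Clu and 29 Grem1 UMIs and no UMI of Prox1, Lyve1, Flt4, Mmrn1 or Reln. Another had 13 Ccl21a, 81 Ccl19 and 115 Cxcl12 UMIs and likewise no lymphatic marker. CCL19 is the partner ligand of CCL21 at CCR7, and neither cell had an Ackr3 or Ackr4 UMI. These cells were singled out after their values were seen, and they are 2 of the 1913 small intestinal trophocytes.

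Ackr3 was led by LECs and was also found in fibroblasts and BECs. In the colon LECs had 463 CPM, trophocytes 250 CPM, CD81- FBs 140 CPM, SMCs 128 CPM, BECs 126 CPM and SEMFs 29.9 CPM. From CD81- FBs down to BECs the neighbours did not differ beyond counting error. In the small intestine LECs had 566 CPM, BECs 331 CPM, trophocytes 150 CPM, CD81- FBs 131 CPM, SMCs 79.5 CPM and SEMFs 5.52 CPM. Each neighbouring pair there had an interval that excluded 0, and SEMFs, the label with the most Cxcl12, had the least Ackr3 in both tissues.

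The share of cells with an Ackr3 UMI was 86.6% of LECs, 56.1% of trophocytes, 46.2% of CD81- FBs and 14.3% of SEMFs in the colon. In the small intestine it was 77.5%, 38.5%, 44.3% and 2.52%, and 54.6% of BECs. There trophocytes had the higher level but the lower share than CD81- FBs, and at 1500 UMIs both shares were 15.5%. By total molecules the tissues differed, because LECs made up more of the small intestinal library. LECs held 51.7% of its Ackr3 UMIs but 8.36% of those of the colon, where CD81- FBs held 58.4%. Of the UMIs of all genes, LECs held 19.3% in the small intestine and 2.62% in the colon. CD81- FBs held 60.7% of all colon UMIs, so their part of Ackr3 was no more than their part of the library.

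Ackr4 marked trophocytes. Their level was 312 CPM (298 to 326) in the colon and 617 CPM (605 to 630) in the small intestine, and 65.6% and 89.3% of them had a UMI. Trophocytes held 95.8% of the Ackr4 UMIs of the colon and 91.2% of those of the small intestine. In the colon the next type was CD81- FBs with 74 UMIs and a level 104-fold lower, and the other labels had 0 to 9 UMIs. No UMI was found in the 53 colon BECs, which allows up to 5.66% of such cells to have a UMI at this depth (a floor of 3 counts) and does not limit the share that express the gene.

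A low level in small intestinal CD81- FBs was the exception for Ackr4. These cells had 37.1 CPM, and 12.9% had a UMI. Split at the median of Adamdec1 per UMI, chosen after values had been seen, the cells with more Adamdec1 had 6.28 CPM and those with less had 66.7 CPM. The cells below the median of the label's own marker thus had the higher Ackr4 level. Trophocyte markers stood at 11.8% to 102% of their trophocyte level in this label, and Ackr4 at 6.01%. The other small intestinal labels had 4.45 to 8.55 CPM, with neighbours that did not differ beyond counting error.

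**Figure D3:**
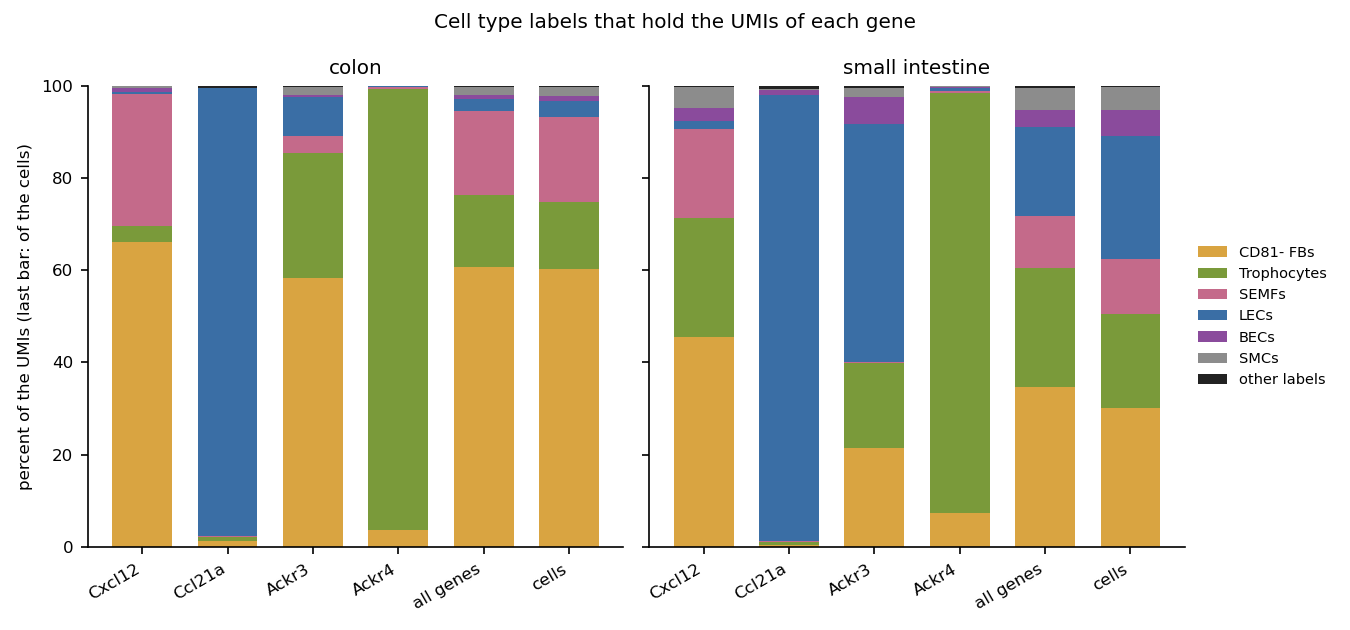
Percent of the UMIs of each gene held by each cell type label in the colon and small intestine, beside the same split of all UMIs and of cells. Ccl21a lies in LECs (97.3% and 96.8%) and Ackr4 in trophocytes (95.8% and 91.2%). The largest part of Ackr3 is held by CD81- FBs in the colon (58.4%, with 60.7% of all UMIs). In the small intestine it is held by LECs (51.7%, with 19.3% of all UMIs).

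Set side by side, each ligand had a different relation to the receptor that can remove it. For Ccl21a and Ackr4 the labels were separate in both tissues: LECs had 1 Ackr4 UMI in the colon and 84 in the small intestine, and trophocytes were 711-fold and 176-fold below LECs in Ccl21a. For Cxcl12 and Ackr3 the labels overlapped within the fibroblasts and ran in opposite order at the ends. SEMFs exceeded LECs 9.41-fold in Cxcl12 in the colon and 18.4-fold in the small intestine. LECs exceeded SEMFs 15.5-fold and 103-fold in Ackr3.

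Detection of a ligand and its receptor in the same cell was read after thinning, since a deep cell shows more of every gene. Only the receptor counts were thinned, and cells were grouped by a Cxcl12 UMI at full depth. In small intestinal trophocytes, the share with Ackr3 was 13.3% among cells with a Cxcl12 UMI and 34.9% among those without. In colon trophocytes it was 22.4% and 29.6%. Cells with Cxcl12 were the deeper ones in both, with medians of 7910 against 7055 UMIs and of 7225 against 6886. For Cxcl12 and Ackr4 the thinned shares of trophocytes lay closer, 55.2% and 50.5% in the small intestine and 30.9% and 32.9% in the colon. The Ackr3 share was also lower with Cxcl12 in CD81- FBs, with 16.5% against 23.0% (colon) and 15.2% against 23.5% (small intestine). In SEMFs it was 3.65% against 14.1% in the colon and 0.60% against 0% in the small intestine. Few CD81- FBs or SEMFs lacked a Cxcl12 UMI.

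Trophocytes were also split by 3 marker genes, Pi16, Grem1 and Cd81, chosen after values had been seen. Pi16 marks adventitial fibroblasts, and trophocytes with a Pi16 UMI had 353 CPM of Ackr3 in the colon against 162 CPM without (log2 ratio 1.13, 0.98 to 1.28). In the small intestine they had 288 against 80.2 CPM (1.84, 1.72 to 1.97). Cxcl12 ran the other way, with 285 against 407 CPM (-0.51, -0.64 to -0.39) and 343 against 778 CPM (-1.18, -1.26 to -1.11). Ackr4 was nearly even in the small intestine, with 632 against 610 CPM (0.05, -0.01 to 0.11), and lower with Pi16 in the colon, with 273 against 345 CPM (-0.34, -0.47 to -0.21). Among colon cells with only Xist UMIs that last ratio was 0.03, and among those with only Y-linked UMIs the Cxcl12 ratio was -0.92.

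Grem1, a secreted BMP antagonist, gave the mirror image. Colon trophocytes with a Grem1 UMI had 440 CPM of Cxcl12 and 168 CPM of Ackr3, and those without had 278 and 316 CPM. In the small intestine, cells above the median of Grem1 per UMI had 824 and 60.7 CPM, and the others had 442 and 238 CPM. The log2 ratios were 0.66 (0.54 to 0.78) and 0.90 (0.84 to 0.96) for Cxcl12 in the colon and small intestine, and -0.91 (-1.07 to -0.76) and -1.97 (-2.12 to -1.82) for Ackr3. The mean levels of Cxcl12 and Ackr3 thus shifted in opposite directions between the groups, although many cells had both. Before thinning, 54.0% of colon trophocytes with a Cxcl12 UMI also had Ackr3, against 61.9% of those without. A split by Cd81, the marker in the label's name, did not show this shift of levels: its ratios were -0.15 and 0.12 for Cxcl12 and 0.05 and 0.22 for Ackr3. Ackr4 differed little by Grem1 in the small intestine, with 634 and 602 CPM (0.07, 0.02 to 0.13), and more in the colon, with 380 and 257 CPM (0.56, 0.44 to 0.69).

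**Figure D4:**
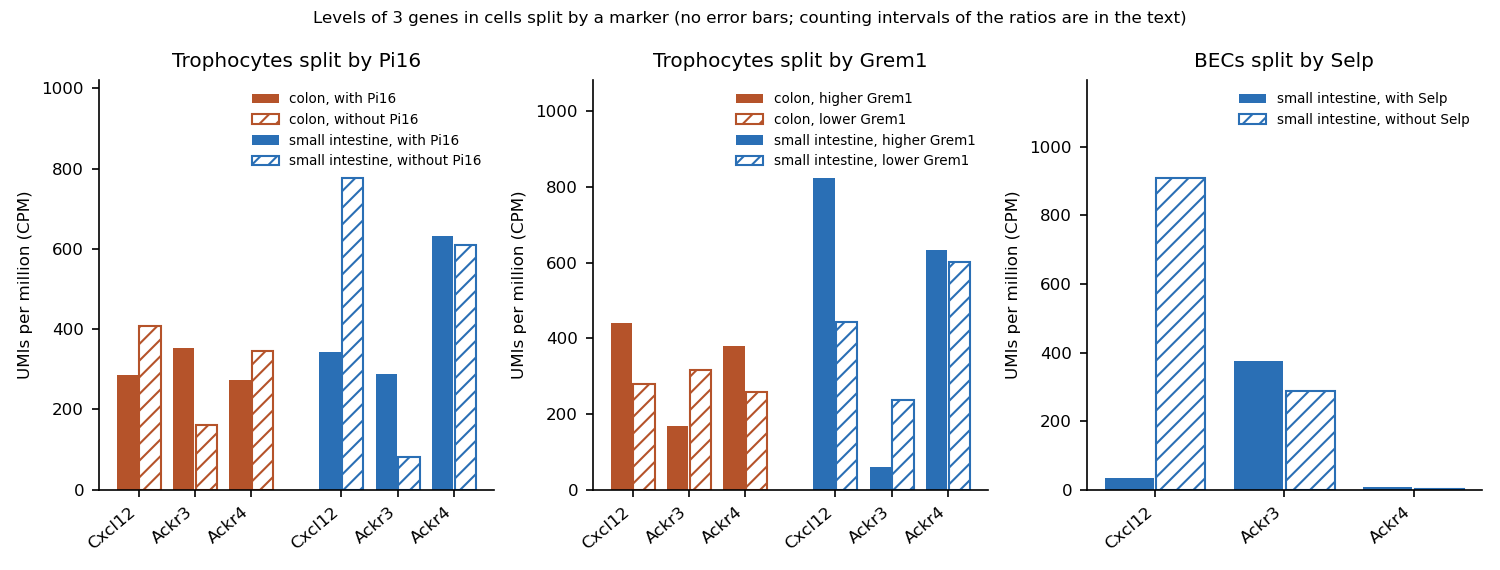
Levels of Cxcl12, Ackr3 and Ackr4, in CPM, in trophocytes split by Pi16 and by Grem1 and in small intestinal BECs split by Selp; filled bars are cells with the marker or more of it, hatched bars are the others. Ackr3 is higher with Pi16 (353 and 288 CPM) than without (162 and 80.2 CPM), and Cxcl12 falls to 35.4 CPM in BECs with Selp.

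Tissues were compared within each type by the log2 ratio of colon to small intestine. A gene was called where the ratio reached 1 in size with a counting interval that excluded 0, given at least 100 UMIs of the type in the libraries together. This left 20 pairs of member and type, of which 5 were called higher in the colon and 8 higher in the small intestine. Most of the latter were Ccl21a in the labels other than LECs. There it stood at 0.0254% to 5.30% of its LEC level, and the part of free RNA or joined cells in these calls was not tested. Those higher in the colon were Cxcl12 in CD81- FBs, SEMFs, LECs and BECs, and Ackr3 in SEMFs. The pairs repeat 4 genes chosen with earlier results known, so neither an excess nor a lack of calls was read from the counts. Among all genes tested, the share called higher in the colon was 6.46% for CD81- FBs, 4.23% for trophocytes, 5.36% for SEMFs, 3.45% for LECs, 3.1% for BECs and 3.37% for SMCs. In that order, 10.4%, 8.24%, 15.1%, 14.7%, 18.7% and 17.3% were called higher in the small intestine. The median gene stood between -0.31 (SEMFs) and 0.09 (BECs).

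Cxcl12 was higher in the colon in most types that make it. Its ratio was 1.00 in the pooled fibroblasts (0.98 to 1.02), where 6.88% of genes were called higher in the colon and 9.47% higher in the small intestine. It was 1.01 in CD81- FBs, 1.15 in SEMFs and 1.85 in BECs. The BEC labels differed in their mix: 3 colon cells had a Selp UMI and 50 had none, against 194 and 330 small intestinal cells. Among BECs without Selp, Cxcl12 stood at 1877 CPM (colon) and 911 CPM (small intestine). The part of the Selp mix in the BEC ratio was not tested. The fibroblast calls sat at the threshold of 1. The pooled value was 0.998 without the top 6% of doublet scores, 0.96 as a mean over single cells, 0.93 with only Y-linked colon cells and 0.80 with equal weight for the subtypes. CD81- FBs had 0.97 as a mean over cells and 0.96 with only Xist cells, and SEMFs had 0.95 with only Y-linked cells, so these calls were lost there. Trophocytes and SMCs went the other way, with -0.85 and -1.03, and with only Y-linked colon cells the trophocytes had -1.34 and the SMCs -0.76. In LECs the ratio was 2.12, or 1.04 once the 6% of cells that scored highest as doublets were left out, and the fibroblast genes were also higher in colon LECs. With those cells left out the SMC ratio was -1.61. The small intestinal SMC label carried Adamdec1 above the level of CD81- FBs, and the part of this in the ratio was not tested.

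**Figure D5:**
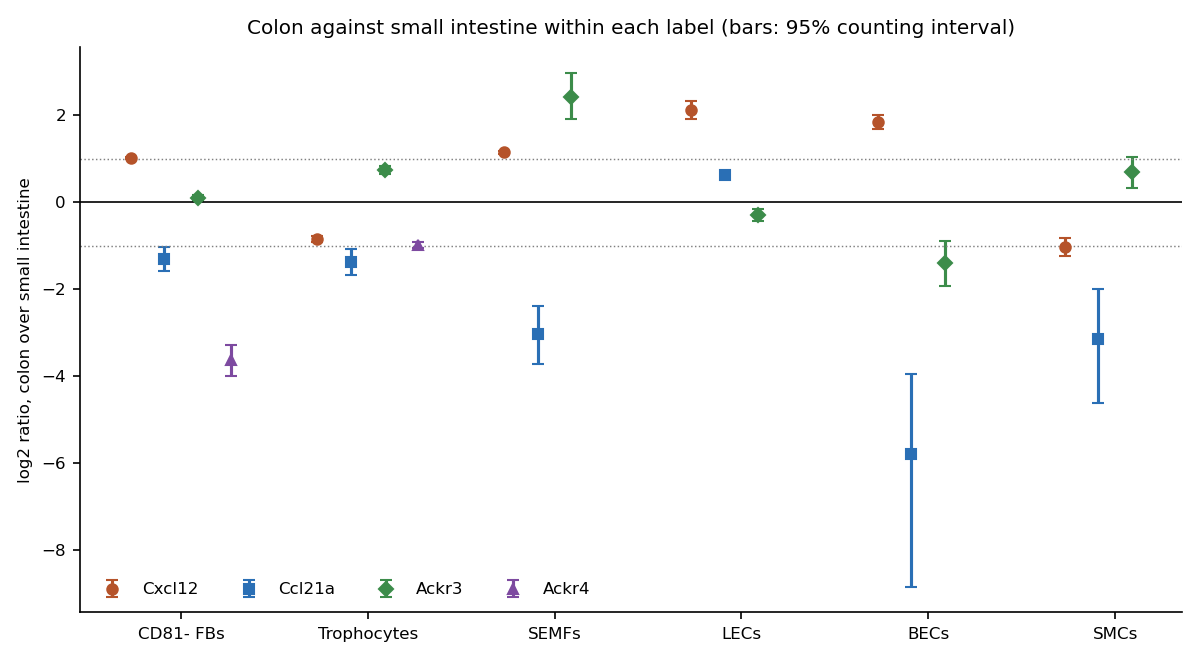
Log2 ratio of colon to small intestine for each gene in each cell type label with at least 100 UMIs, with 95% counting intervals; the solid line is 0 and the dotted lines are -1 and 1. Cxcl12 lies above 0 in CD81- FBs, SEMFs, LECs and BECs and below 0 in trophocytes (-0.85) and SMCs (-1.03).

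Ccl21a was 1.55-fold higher in colon LECs (log2 ratio 0.63, 0.61 to 0.66), short of a call. Within the colon library, LECs with only Y-linked UMIs had 14149 CPM and those with only Xist UMIs 10896 CPM, a log2 ratio of 0.38. In the other 5 types the ratio was below -1, from -1.30 in CD81- FBs to -5.81 in BECs, where the colon had 2 UMIs. In BECs and trophocytes the ratio rested on few cells. Leaving out the top doublet scores gave -2.34 in BECs and -2.58 in trophocytes, and leaving out the richest cell of each library brought the trophocytes from -1.38 to 0.0042. In CD81- FBs, where rich cells held less, the levels without them were 5.51 CPM (colon) and 14.4 CPM (small intestine).

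Ackr3 differed little between the tissues in LECs and in the pooled fibroblasts, and more within other labels. Its ratio was -0.29 in LECs (-0.43 to -0.16) and 0.21 in the pooled fibroblasts (0.15 to 0.27), within which trophocytes had 0.74 and CD81- FBs 0.09. SEMFs had 2.44 (1.92 to 2.99), from 29.9 and 5.52 CPM (3.74 without the top doublet scores), and BECs had -1.39 (-1.93 to -0.89), from 34 colon UMIs. In CD81- FBs the ratio was -0.10 with only Y-linked colon cells.

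Ackr4 was lower in the colon. In trophocytes the ratio was -0.99 (-1.06 to -0.92), just short of a call, and in CD81- FBs it was -3.63 (-4.00 to -3.29). The pooled fibroblasts had -2.17, where trophocytes were also a smaller part of the colon cells. Ackr4 varied as widely within the colon library: trophocytes with only Y-linked UMIs had 450 CPM and those with only Xist UMIs 206 CPM, a log2 ratio of 1.13. The tissue ratio was -0.46 with the former and -1.58 with the latter. Sex and animal cannot be told apart there.

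The genes around these members were taken from a list of 26, of which 17 were listed for both libraries. Of the other ligands, Cxcl13, a B cell chemokine, was called higher in the colon in CD81- FBs (2.89), SEMFs (2.02) and LECs (4.96, from 89 colon UMIs) and higher in the small intestine in trophocytes (-1.79). In colon LECs 12 of 217 cells had a Cxcl13 UMI, and 1 cell held 25 of the 89. Their level was 83.5 CPM against 788 CPM in colon CD81- FBs, whose marker genes stood at 9.31% to 20.5% in colon LECs. The part of free RNA or joined cells in the LEC call was not tested. Ccl19 was called higher in the small intestine in CD81- FBs (-3.04) and in trophocytes, where it had 31.3 CPM against 2 colon UMIs. Ccl25, which attracts CCR9-bearing T cells, was called higher in the small intestine in CD81- FBs, trophocytes, SEMFs and LECs, at 8.55 to 18.7 CPM across all 6 types there. All 3 ligands listed for both libraries were thus called higher in small intestinal trophocytes, where 8.24% of all genes tested were. Ccl25 was not particular to that label, with 11.6 CPM there, 16.2 CPM in CD81- FBs and 18.7 CPM in SEMFs. The part of free RNA in these Ccl25 levels was not tested. Of the 470 Ccl19 UMIs of small intestinal trophocytes, 114 and 81 came from the cells singled out above.

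Of the 4 other atypical receptors in the list, 3 had their highest level in an endothelial label of each tissue. Ackr2, which removes inflammatory CC chemokines, had 178 CPM in colon LECs and 66.7 CPM in small intestinal LECs (1.42, called higher in the colon). Gpr182, an atypical receptor for CXCL12 and other chemokines, had 135 and 115 CPM in LECs (0.24, -0.02 to 0.48). Ackr1, the venular chemokine receptor, had 510 CPM in small intestinal BECs and 19 UMIs in colon BECs, all in the VenECs. Ccrl2, an atypical receptor that binds chemerin, was not confined to endothelium. It was highest in small intestinal SEMFs, with 69.3 CPM against 34.6 CPM in colon SEMFs (called higher in the small intestine). Within the colon its highest level was in BECs, with 48.2 CPM from 13 UMIs. LECs thus held the highest Ackr3, Ackr2 and Gpr182 levels of the 6 types in both tissues.

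The signalling receptors were nearly undetected in these sorted cells. Cxcr4 had 9 UMIs in colon BECs, 12 in small intestinal BECs and at most 6 in any other type. Ccr7 had 1 UMI each in 3 types of the small intestine and was not listed for the colon. Dpp4, a protease that cleaves CXCL12, had 22.3 CPM in colon trophocytes and 1.13 CPM in small intestinal trophocytes, a ratio of 4.30 (3.57 to 5.12). Of the adrenomedullin genes, whose peptide is a further ligand of ACKR3, Adm was called higher in the colon in CD81- FBs (1.70) and SEMFs (1.22). In trophocytes, its highest of the fibroblast labels in each tissue, Adm had 58.9 and 81.5 CPM. Over the whole list, 2 of 10 genes tested in CD81- FBs were called in each direction, and in trophocytes 1 of 11 was called higher in the colon and 4 higher in the small intestine, with median ratios of -0.53 and -0.47 against -0.25 and -0.06 for the median gene. In BECs 3 of 4 and in SMCs 3 of 3 were called higher in the small intestine and none higher in the colon. The shares over all genes tested were 6.46% (colon) and 10.4% (small intestine) in CD81- FBs and 4.23% and 8.24% in trophocytes, and 18.7% of genes in BECs and 17.3% in SMCs were called higher in the small intestine.

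Genes with the most similar pattern were ranked by Pearson's r of log2(CPM + 10) over 12 points, the 6 types in 2 libraries, which share libraries and differ in depth. Among 5935 genes, Ackr4 was followed most closely by Galnt16 (0.99), Pcolce2, Npy1r, Pi16 and Adamtsl3. Ccl21a was followed by Mmrn1 (0.99), Lyve1, Lcn2, Dtx1 and Reln. The values were lower for Ackr3, whose closest genes included Zfp36l2 (0.91), Pcbp2 and Vsir, and for Cxcl12, led by Jtb (0.90), Pltp, S100a1, Ctsz and AW112010. Jtb itself ranged only from 37.7 to 76.5 CPM, against 59.1 to 2412 CPM for Cxcl12. With 1 in place of 10 added, 5 of the 5 genes were the same for Cxcl12, 4 for Ackr4 and 3 each for Ccl21a and Ackr3, where Pcbp2 was no longer among the 5.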

How the data were processed

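Per the labels' protocols, sorted stromal cells were run on the 10x Genomics 3' kit, with about 16000 cells loaded per library. The authors deposited, for each library, a table of raw UMI counts, the same genes after normalization as natural log values, and a cell type label for each cell. The submitters' processing notes name Cell Ranger 7.1.0, Seurat 4 and mm10; filters on cells and the treatment of multi-mapping reads are not given in the sources used here. Recomputed from the counts (scaled to 10000 per cell), the deposited natural log values differed by at most 6.2e-15.

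The members and gene lists were chosen with earlier results of these data known. Spellings of labels were joined and the colon CapECs, ArtECs and VenECs pooled as BECs. Counts were summed per library and type and given as CPM, with exact Poisson, Clopper-Pearson and conditional binomial 95% intervals, which cover counting error only; a count of 0 took a floor of 3 counts. The types compared were those of 50 or more cells on both sides. A call needed a log2 ratio of at least 1 in size, an interval excluding 0 and at least 100 UMIs. Named genes were the 4 members, the list of 26 pathway genes and the 5 genes with the pattern most like each member, among genes with at least 50 CPM in a type; some genes that the rule names for Ackr3 are not reported here. The interval and thinning methods were tested on simulated data. Doublet scores came from Scrublet in scanpy 1.11.5, whose caller marked 1 colon cell (0.0166%, too few to have worked) and 85 small intestinal cells (0.908%); doublets were kept, and the 6% highest scores were left out as an alternative. Other alternatives changed the denominator, the weight of cells, the log values, the choice of colon cells (only Xist or only Y-linked UMIs), the richest cell and the scaling; the splits by marker genes, and the alternatives run on them, were chosen after seeing the data. Python 3.11.15, numpy 2.4.6, scipy 1.17.1 and pandas 2.3.3 were used.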

Additional observations from a re-analysis of the deposited data

Results flagged for a closer look

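For 3 genes the colon to small intestine log2 ratio pointed in opposite directions in different cell types, with intervals on opposite sides of 0. With 1 library per tissue, the difference between types was not tested. Cxcl12 was above 0 in CD81- FBs (1.01), SEMFs (1.15), LECs (2.12) and BECs (1.85) and below 0 in trophocytes (-0.85) and SMCs (-1.03). The BEC labels differed in their share of cells with Selp, and the part of this in the Cxcl12 ratio was not tested. Ccl21a was above 0 in LECs (0.63) and below 0 in CD81- FBs (-1.30), trophocytes (-1.38), SEMFs (-3.03), BECs (-5.81) and SMCs (-3.15). Outside LECs, Ccl21a stood at 0.0254% to 5.30% of its LEC level. LECs were 3.61% of the colon cells and 26.7% of the small intestinal cells. Without the richest cell of each library the trophocyte ratio was 0.0042. The part of free RNA or joined cells in the Ccl21a ratios was not tested. Ackr3 was above 0 in CD81- FBs (0.09), trophocytes (0.74), SEMFs (2.44) and SMCs (0.69) and below 0 in LECs (-0.29) and BECs (-1.39).

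Signal was also found in labels too small to compare. The 8 colon cells with pericyte labels had 18 Cxcl12 and 8 Ackr3 UMIs. The 4 colon cells labelled proliferating had 39 Cxcl12 and 44 Ccl21a UMIs, and all 44 came from 1 cell. The 24 small intestinal cells labelled proliferating had 63 Cxcl12, 633 Ccl21a and 59 Ackr3 UMIs and no Ackr4 UMI. Of those 24 cells, 20 had Ccl21a and 18 had Prox1, the lymphatic transcription factor gene.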

How the results depend on the processing

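The highest type of each of the 4 genes was the same in both tissues under the 9 alternatives run on it. Of 30 log2 alternative values of the tissue ratios of Cxcl12 and Ackr3 in fibroblasts, Ccl21a in LECs and Ackr4 in trophocytes, 13 stayed within their counting interval, 17 moved and none reversed. In that order of genes, with colon cells of only Y-linked UMIs the ratios were 0.93, 0.0864, 0.85 and -0.46. With only Xist UMIs they were 0.40 for Ackr3, 0.48 for Ccl21a and -1.58 for Ackr4. As differences of the deposited natural log values, another scale whose sizes cannot be set beside log2 ratios, they were 0.56, 0.0898, 0.60 and -0.68. Relative to the median gene they were 1.19, 0.40 and 0.75 for Cxcl12, Ackr3 and Ccl21a. With equal weight for the fibroblast subtypes, Cxcl12 had 0.80 and Ackr3 0.55. As means over single cells, Cxcl12 had 0.96 and Ccl21a 0.66, and without mitochondrial and ribosomal protein UMIs 1.04 and 0.67. Without the highest doublet scores Ccl21a had 0.76. The cause of these moves was not tested. Of the other values, 3 reversed: Ackr3 in CD81- FBs with only Y-linked colon cells (-0.10), Ccl21a in trophocytes without its richest cells (0.0042) and the Pi16 split of Ackr4 in colon trophocytes with only Xist cells (0.0296). Colon BECs, with 269665 UMIs, limit the precision of the BEC ratios. No paired analysis was possible because each tissue had 1 library and no result came from a test.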
